A study of Mus musculus with 9 samples.

Results

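The genes described here are 10 genes of differentiating neurons: Tubb3, Stmn2, Dcx, Map2, Nefl, Nefm, Elavl3, Elavl4, Gap43 and Ncam1. They were chosen by name, and all 10 were found among the 54532 genes of the deposited count table. The RNA came from the lambdoidal junction of C57BL/6J mouse embryos, the site at which the maxillary prominence meets both nasal prominences and fuses with them to form the upper lip and primary palate. RNA-seq libraries of 3 stages were compared, E10.5, E11.5 and E12.5 (days of embryonic development), with 3 libraries in each group. All embryos were of this inbred strain, none carried a named allele or received an agent, and each library was made from a pool of embryos. The p-values therefore measure the spread between pools and not between embryos. Library depth ranged from 16581009 to 20836804 counted reads. E10.5 replicate 3 stood apart from the other two of its stage along GC content, and E12.5 replicates 2 and 3 parted along gene length. Values without E10.5 replicate 3 and without E12.5 replicate 2 are given after the single genes. The tissue is bulk, so fewer cells of a type and less RNA per cell cannot be told apart.

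A neuron leaves the cell cycle, switches on a shared set of genes and sends out an axon. Tubb3, Stmn2, Dcx, Map2 and the neurofilaments build or regulate its cytoskeleton, the Elavl proteins bind and stabilise neuronal RNAs, and Gap43 and Ncam1 act at the membrane of growing axons. In the embryonic face, neurons form in the epithelium of the nasal pit, while axons of the trigeminal ganglion grow in from cell bodies outside the prominences. Some of these genes are not restricted to neurons: Ncam1 and Gap43 are also made by cells of the Schwann lineage, and Ncam1 by condensing mesenchyme.

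Upstream sequences are shown for the Elavl paralogues, whose ratio of reads was lower at E10.5 than at both later stages (not tested). They are also shown for Tubb3 and Map2, the genes with the most reads at E10.5. They were taken from RefSeq windows (GRCm38.p6) of 250 bases before to 50 bases after a transcript start, which were at hand for 5 of the 10 genes (Dcx, Elavl3, Elavl4, Map2 and Tubb3). The 120 bases directly before the start are printed 5′ to 3′ on the gene's strand. The stretches are chr9:22052024-22052143 (minus strand) for Elavl3 and chr4:110287512-110287631 (minus strand) for 1 of the 4 Elavl4 windows, chosen because it held E-boxes. Those of Tubb3 and Map2 are chr8:123411433-123411552 and chr1:66175209-66175328, both on the plus strand.
Elavl3: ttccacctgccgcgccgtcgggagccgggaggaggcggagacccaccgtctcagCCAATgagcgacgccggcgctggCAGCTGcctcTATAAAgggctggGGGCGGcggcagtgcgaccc
Elavl4: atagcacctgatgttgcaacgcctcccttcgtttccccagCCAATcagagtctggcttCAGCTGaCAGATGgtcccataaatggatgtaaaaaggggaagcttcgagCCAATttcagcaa
Tubb3: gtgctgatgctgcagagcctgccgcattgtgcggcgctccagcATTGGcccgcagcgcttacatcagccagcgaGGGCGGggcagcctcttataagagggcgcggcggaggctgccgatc
Map2: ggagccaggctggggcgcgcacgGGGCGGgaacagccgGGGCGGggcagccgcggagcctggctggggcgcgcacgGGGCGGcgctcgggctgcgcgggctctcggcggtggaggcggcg

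Capitals mark exact matches, on either strand, to E-boxes bound by proneural factors (CAGCTG and CAGATG), the TATA box (TATAAA), the CCAAT box (CCAAT) and the GC box (GGGCGG). Elavl3 and Elavl4 each held CAGCTG before the start, and in Elavl4 a CAGATG followed it after 1 base. Of all 32851 windows of 300 bases, 16.3% held CAGCTG, 17.2% CAGATG, 13.6% TATAAA, 37.4% CCAAT and 35.7% GGGCGG. The left part of the RE1 element, which the neuronal repressor REST binds, was searched as TTCAGCACC and matched none of the 9 windows of these 5 genes, against 0.371% of all windows. A match is a description of the letters and no evidence of binding. Which Elavl4 start was used in this tissue was not measured.

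Levels are given as CPM, the reads of a gene scaled to a common library size, with sizes set by TMM over the 9 libraries. Per kilobase of listed gene length (RPKM), which allows genes to be compared with each other, Tubb3 was highest at E10.5 (48.0 ± 0.574 RPKM, mean ± SD, n = 3). Gap43 followed with 26.8 ± 3.83 RPKM, and the other 8 genes had means between 1.26 (Dcx) and 3.61 (Map2) RPKM. Among those 8, neighbours in the order Map2, Elavl3, Stmn2, Elavl4, Ncam1, Nefm, Nefl and Dcx overlapped within 1 SD at E10.5. At E12.5 the order had changed. Gap43 (79.4 ± 16.6 RPKM) and Tubb3 (63.9 ± 3.37 RPKM) overlapped within 1 SD at the top, followed by Stmn2 (18.9 ± 4.01 RPKM) and Ncam1 (11.97 ± 1.99 RPKM), each clear of its neighbours. Elavl4 came next with 4.12 ± 1.03 RPKM, and Map2 (2.44 RPKM), Elavl3 (2.26 RPKM), Nefl (1.48 RPKM), Dcx (1.32 RPKM) and Nefm (1.30 RPKM) closed the order, each overlapping the next.

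**Figure D1:**
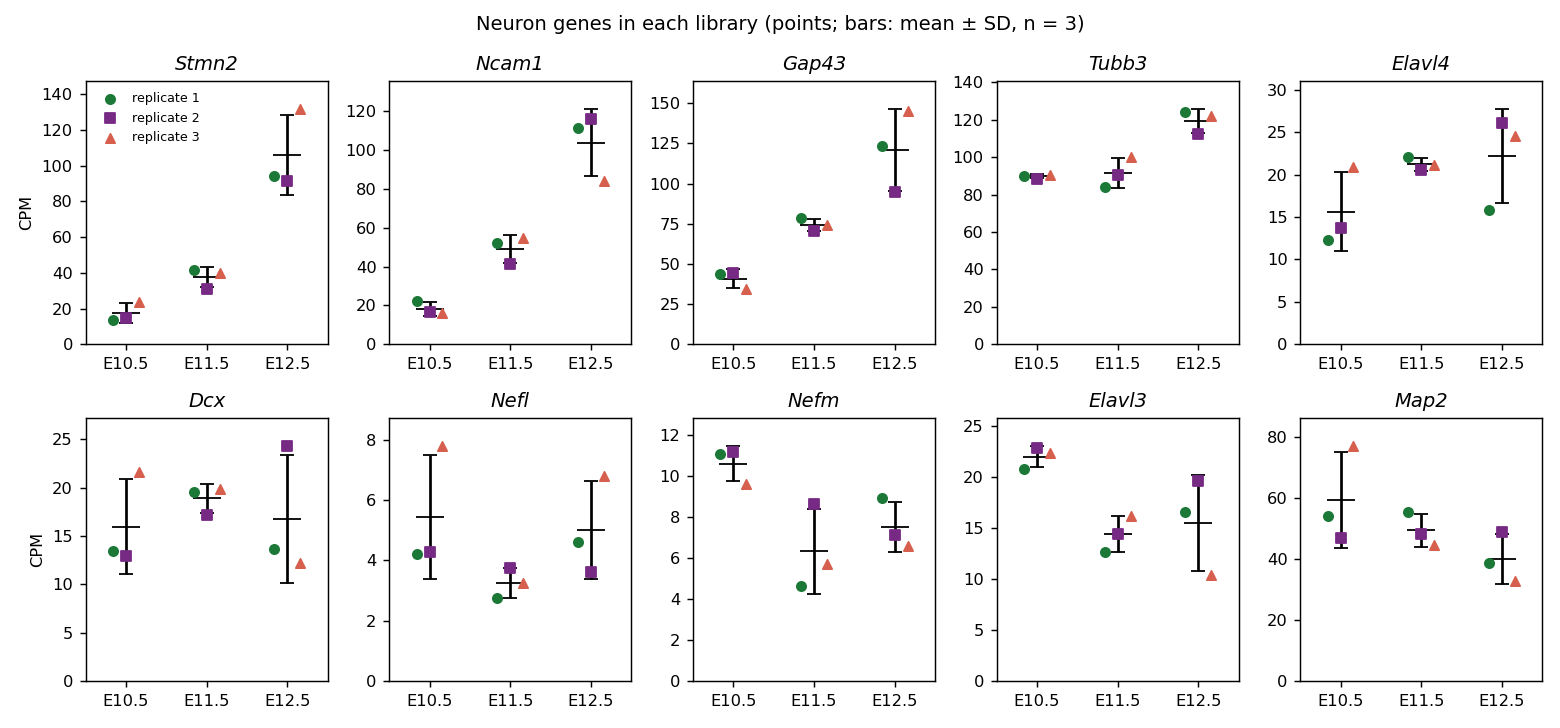
CPM (y axis, from 0) of each of the 10 genes in every library by stage (x axis). Symbols are the 3 replicate libraries, and bars are the mean ± SD (n = 3). Stmn2, Ncam1 and Gap43 climbed over both intervals without overlap between stages, whereas the E12.5 libraries of Elavl4, Dcx and Map2 overlapped those of earlier stages.

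The stages were compared in pairs by the quasi-likelihood test of edgeR, with Benjamini-Hochberg adjustment over all genes tested. A gene passed at an adjusted p of at most 0.05, and it was a differentially expressed gene (DEG) if its log2 fold change was also at least 1 in size. From E10.5 to E11.5, 3 of the 10 genes rose (Stmn2, Ncam1 and Gap43) and 1 fell (Elavl3), where 6.19% of the 15708 genes tested rose and 5.58% fell. From E11.5 to E12.5 the risers were again Stmn2, Ncam1 and Gap43, where 7.61% of all 15808 genes rose and 4.57% fell. None of the 10 fell in that interval by edgeR, by DESeq2 or at an unadjusted p under 0.05. Over the whole span, E12.5 against E10.5, those 3 genes rose and 0 of the 10 fell by edgeR or DESeq2, with 1 (Map2) lower at an unadjusted p under 0.05. Of the 15899 genes tested across the span, 14.0% rose and 10.5% fell. The 3 comparisons share libraries, so their counts are not independent. Stmn2 and Ncam1 were DEGs in both intervals, where 3.46% (first) and 4.14% (second) of all genes were DEGs that rose, and Gap43 joined them over the span, where 9.97% were. None of the 10 was a DEG that fell by edgeR or DESeq2, and of all genes 2.61%, 0.962% and 5.08% were in the first interval, the second interval and the span. In the first interval 3 of the 10 genes had every later library above every earlier one and 3 had every later library below, where 18.3% of all genes did in each direction. The counts were 4 above and 0 below in the second interval (18.5% and 16.8% of all genes) and 4 above and 2 below over the span (22.0% and 20.4%). The median log2 fold change of the 10 genes was 0.14, 0.31 and 0.25 in the first interval, the second interval and the span, beside -0.03, 0.02 and -0.0063 over all genes tested.

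**Figure D2:**
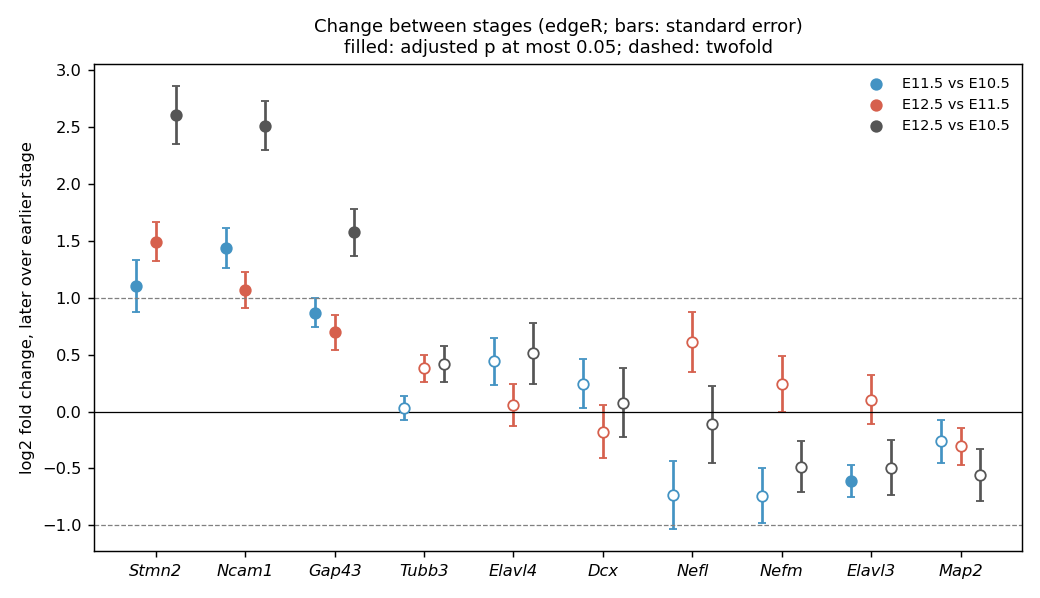
Log2 fold change, with the later stage in the numerator (y axis), for each of the 10 genes (x axis) in the 3 comparisons. Bars are standard errors, filled points have an adjusted p of at most 0.05, and dashed lines mark a log2 fold change of 1 in either direction. Stmn2 and Ncam1 lie above the upper line in all 3 comparisons, and Elavl3 holds the only filled point below 0.

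Stmn2 encodes stathmin-2 (SCG10), which binds tubulin and regulates microtubule turnover in growth cones, and lies at chr3:8509360-8561606 (plus strand). It rose 6.09-fold across the span. Stmn2 measured 13.7, 14.9 and 23.9 CPM in E10.5 replicates 1 to 3, 41.5, 31.0 and 40.0 CPM at E11.5, and 94.2, 91.7 and 132 CPM at E12.5. Every library lay above all libraries of the stage before it, and the widest spread was at E12.5, where replicate 3 stood highest. The log2 fold change was 1.10 ± 0.23 (SE, adjusted p = 0.0202) in the first interval and 1.49 ± 0.17 (adjusted p = 4.33e-04) in the second. It was 2.61 ± 0.26 (adjusted p = 4.48e-05) over the span. The first of these calls depended on single libraries: Stmn2 passed in 2 of 6 fits that left out a library, and its adjusted p ranged from 6.53e-06 to 0.105. Both later calls held in 6 of 6.

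Ncam1 encodes the neural cell adhesion molecule and lies at chr9:49502136-49798925 (minus strand). It rose 5.71-fold across the span. Ncam1 measured 22.4, 16.6 and 15.9 CPM at E10.5, 51.9, 41.1 and 54.8 CPM at E11.5, and 111, 116 and 83.9 CPM at E12.5. No library overlapped another stage. The log2 fold change was 1.43 ± 0.18 in the first interval (adjusted p = 0.00294) and 1.07 ± 0.16 in the second (adjusted p = 0.00192). Both calls, and that of the span (2.51 ± 0.21, adjusted p = 1.78e-05), held in 6 of 6 fits that left out a library. An antisense gene, Gm11149, shares 4.81% of the exonic bases of Ncam1.

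Gap43 encodes the growth-associated protein 43 of growth cone membranes and lies at chr16:42248442-42340651 (minus strand). It rose 2.98-fold across the span. Gap43 measured 43.7, 44.5 and 34.1 CPM at E10.5, 78.3, 70.6 and 74.0 CPM at E11.5, and 123, 94.5 and 145 CPM at E12.5. The stages did not overlap, and the E12.5 libraries were the most spread. The log2 fold change was 0.87 ± 0.13 (adjusted p = 0.00584) in the first interval and 0.70 ± 0.15 (adjusted p = 0.0155) in the second, so Gap43 was a DEG only over the span (1.58 ± 0.21, adjusted p = 3.17e-04). The second interval's call was lost in 4 of 6 fits that left out a library, without any of the E11.5 libraries or without E12.5 replicate 1, with an adjusted p of up to 0.0942.

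The other cytoskeletal genes did not follow these genes. Tubb3 encodes the neuronal class III beta-tubulin and lies at chr8:123411424-123422015 (plus strand). It measured 90.0, 88.5 and 90.6 CPM at E10.5, 84.0, 90.2 and 100 CPM at E11.5, and 124, 112 and 122 CPM at E12.5. The first 2 stages overlapped, and all E12.5 libraries lay above them. The log2 fold change was 0.03 ± 0.10 in the first interval (adjusted p = 0.88), 0.38 ± 0.12 in the second (adjusted p = 0.0621) and 0.42 ± 0.16 over the span (adjusted p = 0.0748), none past the threshold in these fits of 6 libraries. The second value passed with DESeq2 (adjusted p = 0.0475) and with upper quartile normalization (adjusted p = 0.0388). The value over the span passed with upper quartile normalization (adjusted p = 0.0465) and in the fit on all 9 libraries (adjusted p = 0.0223).

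Map2 encodes microtubule-associated protein 2 of dendrites and lies at chr1:66175273-66442583 (plus strand). It measured 54.1, 46.9 and 77.1 CPM at E10.5, 55.4, 48.3 and 44.7 CPM at E11.5, and 38.7, 48.9 and 32.7 CPM at E12.5. Its stages overlapped, with the highest value in E10.5 replicate 3. The log2 fold change over the span was -0.56 ± 0.23 (adjusted p = 0.102), and -0.26 ± 0.19 and -0.31 ± 0.16 in the intervals. With all libraries kept, it passed over the span only in the fit on all 9 libraries (adjusted p = 0.0474). An antisense gene, Gm10558, shares 0.75% of its exonic bases.

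Dcx encodes doublecortin, a microtubule-binding protein of migrating young neurons, and lies at chrX:143855842-143933311 (minus strand). It measured 13.4, 12.9 and 21.6 CPM at E10.5, 19.6, 17.2 and 19.9 CPM at E11.5, and 13.7, 24.3 and 12.2 CPM at E12.5. All stages overlapped, and 1 library at E10.5 and 1 at E12.5 stood far above the other two of its stage. The log2 fold change was 0.25 ± 0.22 and -0.18 ± 0.23 in the intervals (adjusted p = 0.501 and 0.643).

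The neurofilament genes Nefl and Nefm encode the light and medium subunits of the intermediate filaments that fill mature axons. They are neighbours at chr14:68083863-68089095 (plus strand) and chr14:68082590-68124846 (minus strand). Their annotated exons share 1108 bases on opposite strands, 32.8% of those of Nefl and 19.2% of those of Nefm. Reads in that stretch cannot be told apart if strand was not used in counting, which is not given in the sources used here. Nefl measured 4.22, 4.30 and 7.80 CPM at E10.5, 2.74, 3.75 and 3.27 CPM at E11.5, and 4.62, 3.61 and 6.80 CPM at E12.5. Nefm measured 11.1, 11.2 and 9.60 CPM at E10.5, 4.63, 8.66 and 5.69 CPM at E11.5, and 8.90, 7.12 and 6.56 CPM at E12.5. Both were lower in every E11.5 than in every E10.5 library, and the E11.5 and E12.5 libraries overlapped. In the first interval the log2 fold change was -0.73 ± 0.30 for Nefl (adjusted p = 0.151) and -0.74 ± 0.24 for Nefm (adjusted p = 0.0905), short of the threshold. Nefl, at 51 to 126 reads per library, was the least counted of the 10 genes.

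Elavl3 and Elavl4 encode the neuronal RNA-binding proteins HuC and HuD. They lie at chr9:22015005-22052023 and chr4:110203722-110351909, both on the minus strand, and Gm49318 shares 3.72% of the exonic bases of Elavl3. Elavl3 measured 20.9, 22.9 and 22.4 CPM at E10.5, 12.7, 14.4 and 16.2 CPM at E11.5, and 16.6, 19.6 and 10.4 CPM at E12.5. All later libraries lay below those of E10.5. Elavl3 fell by 0.61 ± 0.14 on the log2 scale in the first interval (adjusted p = 0.0295), and its log2 fold change over the span was -0.49 ± 0.24 (adjusted p = 0.162). That fall passed in 1 of 6 fits that left out a library, and it was lost with the replicate number as a block (adjusted p = 0.0673) and in the fit on all 9 libraries (adjusted p = 0.0862). Elavl4 measured 12.2, 13.8 and 20.9 CPM at E10.5, 22.1, 20.5 and 21.1 CPM at E11.5, and 15.8, 26.1 and 24.6 CPM at E12.5. Its stages overlapped, and the log2 fold change in the first interval was 0.44 ± 0.21 (adjusted p = 0.208). Over the span it was 0.51 (adjusted p = 0.188), and Elavl4 passed, as higher, with GC content offsets (0.58, adjusted p = 0.0486) and without E10.5 replicate 3 (0.78, adjusted p = 0.0302). Within a library, the ratio of Elavl4 to Elavl3 CPM lay between 0.587 and 0.936 in the E10.5 libraries, between 1.31 and 1.74 in those of E11.5 and between 0.953 and 2.37 in those of E12.5. The E10.5 ratios lay below those of both later stages. The E11.5 and E12.5 ratios overlapped, and the ratio was not tested. The transcripts differ in GC content (38.9% for Elavl4, 54.1% for Elavl3), along which E10.5 replicate 3 stood apart, so the ratio can carry that shift.

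Because the 10 genes moved by different amounts, their make-up changed within each library. Their summed CPM was 276 to 324 at E10.5, 346 to 380 CPM at E11.5, then 544 to 576 at E12.5. Tubb3 and Map2 held the largest shares at E10.5, with means of 30.5% and 19.9%, and stood at 21.4% and 7.23% at E12.5. Stmn2 went from 5.85% over 10.2% to 18.9% of the sum and Ncam1 from 6.24% over 13.4% to 18.7%. The ratio of Ncam1 to Map2 CPM lay between 0.206 and 0.414 in the E10.5 libraries, between 0.852 and 1.23 in those of E11.5 and between 2.37 and 2.88 in those of E12.5. That of Stmn2 to Map2 was 0.253 to 0.318, 0.642 to 0.895 and 1.87 to 4.03. Neither ratio overlapped between stages, and a ratio within a library does not depend on how libraries are scaled to each other. It can still carry shifts of a library along GC content or gene length, and these genes differ in length (Map2 16449, Ncam1 8664 and Stmn2 5602 bases). At E12.5, the Stmn2 to Map2 ratio was lowest in replicate 2 (1.87) and highest in replicate 3 (4.03), the libraries that parted along length. These shares and ratios are descriptions and were not tested.

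**Figure D3:**
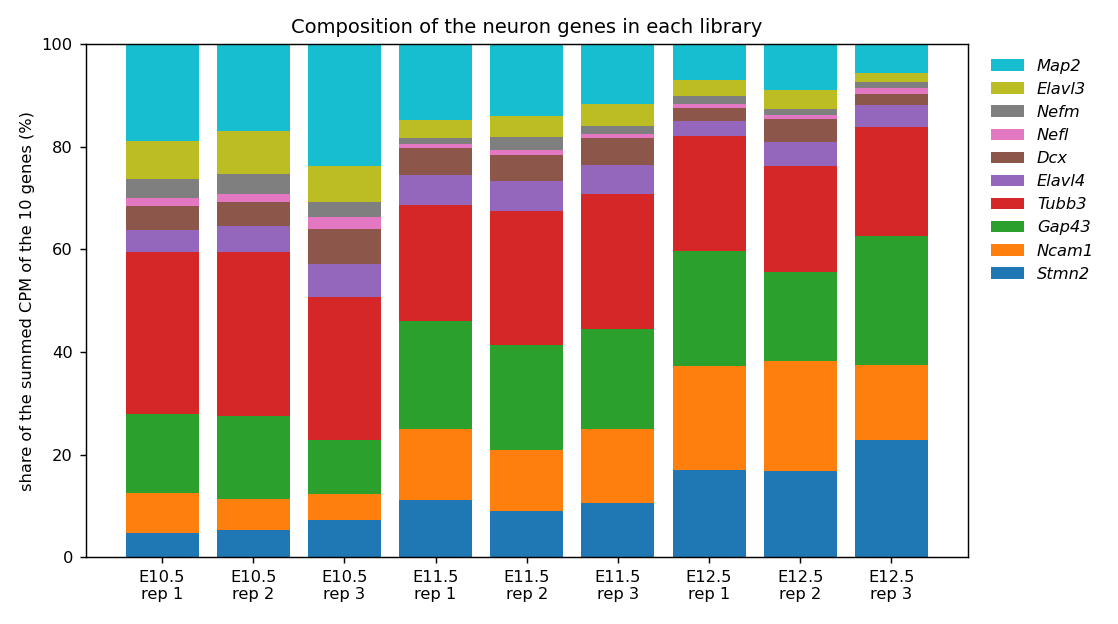
Share of the summed CPM of the 10 genes held by each gene (y axis, percent) in each of the 9 libraries (x axis). Colours are genes. The shares of Stmn2 and Ncam1 are larger in every E12.5 than in every E10.5 library, while that of Map2 is 17.0 to 23.8% at E10.5 and 5.68 to 8.99% at E12.5.

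Over the 9 libraries, the centred log2 CPM profiles of Elavl3 and Nefm were the closest pair among the 10 genes (root mean square distance 0.302 log2 units), followed by Dcx with Map2 and Elavl4 with Dcx (both 0.307). Stmn2 and Ncam1 were 0.437 apart, and Stmn2 and Elavl3 the farthest pair at 1.36. The libraries share stages and depth, so a short distance is a description.

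Whether a gene moved more in the second than in the first interval was tested on all 9 libraries as (E12.5 - E11.5) - (E11.5 - E10.5). None of the 10 genes passed, where 0.562% of the 16375 genes tested passed upward and 0.623% downward. At an unadjusted p under 0.05, 2 did, Nefl (1.35 ± 0.55 on the log2 scale, adjusted p = 0.339) and Nefm (0.99 ± 0.42, adjusted p = 0.373). DESeq2 was not run for this difference. A rise in one interval was therefore not shown to exceed that in the other for Stmn2 (0.39 ± 0.38), Ncam1 (-0.36 ± 0.31) or Gap43 (-0.16 ± 0.29).

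Libraries stood apart within 2 stages. E10.5 replicate 3 differed from replicates 1 and 2 with a chi-square per degree of freedom of 60.3 and 64.7, against 6.57 between those, and its deviation followed transcript GC content (Spearman rho -0.546 across genes, which are not independent). Stmn2, Dcx and Elavl4, with 38.9 to 41.3% GC, and Nefl and Map2 were 0.61 to 0.87 log2 units higher in that library than in the mean of the other two. Gap43, Ncam1 and Nefm were 0.21 to 0.37 log2 units lower. The same library had a lower summed level of the 10 facial mesenchyme markers (1375 CPM against 2391 and 2308) and of the 5 endothelial markers (104 CPM against 259 and 256), and a higher one of the 10 facial epithelium markers (878 CPM against 478 and 544). Without it, 5 of the 10 genes rose from E10.5 to E11.5 and 2 fell: Elavl4 (0.71, adjusted p = 4.22e-04) and Dcx (0.53, adjusted p = 0.00422) joined the risers and Nefm (-0.80, adjusted p = 0.0114) fell with Elavl3. That fit called 6447 of 16263 genes in all (39.6%), against 1849 of 15708 with the library. Elavl4 also passed with a GC correction and all libraries kept (0.48, adjusted p = 0.0176), whereas Dcx and Nefm did not.

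At E12.5, each library was set against the mean of the rest of its stage. The deviation followed listed gene length in replicates 2 and 3 (rho 0.523 and -0.411), and less so in replicate 1 (-0.174). Between replicates 2 and 3, the long genes Dcx, Elavl3, Map2 and Ncam1 were 0.46 to 0.99 log2 units higher in replicate 2, and Nefl, Gap43 and Stmn2 were 0.52 to 0.91 higher in replicate 3. Without E12.5 replicate 2, 5 of the 10 genes rose from E11.5 to E12.5 and 2 fell. That fit called 4976 of 16178 genes in all (30.8%), against 1926 of 15808 with the library and 1780 of 16229 without E12.5 replicate 3 instead. Tubb3 (0.42, adjusted p = 0.0160) and Nefl (0.80, adjusted p = 0.0330) joined the risers, and Dcx (-0.55, adjusted p = 0.0136) and Map2 (-0.48, adjusted p = 0.0200) fell. With a length correction and all libraries kept, only Stmn2, Ncam1 and Gap43 passed in that interval, Gap43 with 0.47 (adjusted p = 0.0111). The part of GC content, length and tissue make-up in these differences was not tested.

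**Figure D4:**
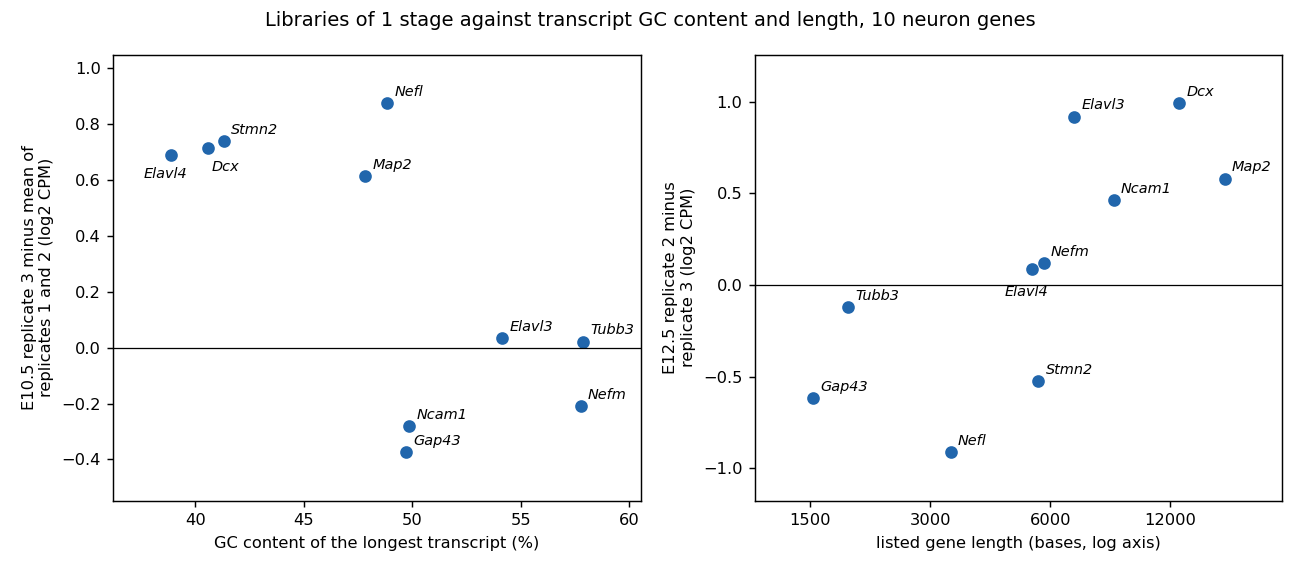
Left, log2 CPM of E10.5 replicate 3 minus the mean of E10.5 replicates 1 and 2 (y axis) against GC content of the longest transcript (x axis, percent). Right, log2 CPM of E12.5 replicate 2 minus replicate 3 (y axis) against listed gene length in bases (x axis, log scale), with 1 point per gene. The genes with 38.9 to 41.3% GC lie at 0.69 to 0.74 on the left, and the 4 longest genes at 0.46 to 0.99 on the right.

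The wider neuronal programme was read from lists of other genes. Of 16 proneural and early neuronal transcription factors, 12 could be tested in the first interval: 3 rose (Myt1l, Nhlh1, Nhlh2) and 4 fell (Myt1, Scrt1 and Scrt2 among them), with a median log2 fold change of -0.05. Nhlh2, made in newly born neurons, went from 8.44, 8.42 and 10.7 CPM to 17.1, 17.7 and 17.1 CPM. In the second interval Insm1 rose (0.70, adjusted p = 0.00783) and Neurod4 fell, from 11 to 16 reads per library at E11.5 to 0 at E12.5. Over the span, Insm1, Myt1l, Nhlh1 and Nhlh2 rose, and the same 4 genes as in the first interval fell. Without E10.5 replicate 3, Neurod1 also rose in edgeR's test in the first interval (1.16, adjusted p = 2.17e-04) and over the span (1.24, adjusted p = 0.00245). Those fits called 39.6% and 30.1% of all genes.

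All 8 neural progenitor genes (Sox1, Sox2, Sox3, Pax6, Nes, Msi1, Notch1 and Hes5) fell from E10.5 to E11.5 and over the span. Their median log2 fold changes were -1.38 and -1.89. The count was 8 without E10.5 replicate 3 as well. Their summed level was 838 to 843 CPM at E10.5, 355 to 415 CPM at E11.5 and 259 to 321 CPM at E12.5, and no library overlapped another stage. Nes, the intermediate filament of neural stem cells, fell by 1.13 ± 0.13 on the log2 scale in the first interval (adjusted p = 0.0025). In the second interval Pax6 and Msi1 fell and the others did not pass. Nes and Sox2 are not specific to neural tissue in the face.

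Lists that hold the relatives of the 10 genes were mixed. Of 14 other neuronal cytoskeleton genes, 13 were tested in each interval: 1 rose (Dclk1) and 4 fell (Dpysl5, Stmn3, Stmn4, Tubb4a) in the first, and 4 rose (Dclk1, Prph, Stmn3, Tubb4a) and 1 fell (Kif5c) in the second. Stmn3 and Stmn4, the other stathmins of neurons, fell by 1.19 and 1.76 on the log2 scale in the interval in which Stmn2 rose by 1.10. Without E10.5 replicate 3, the log2 fold changes of Stmn3 and Stmn4 were -0.90 and -1.13. Dclk1, a relative of doublecortin, went from 30.1 ± 2.33 over 50.5 ± 7.75 to 83.4 ± 16.4 CPM, and Prph, the neurofilament peripherin of peripheral neurons, from 0.40 ± 0.299 over 1.53 ± 0.389 to 4.81 ± 1.14 CPM (n = 3 each). Without E10.5 replicate 3 the first interval held 3 risers and 9 fallers in this list.

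Of 11 other neuronal RNA-binding protein genes, 0 rose in any comparison by edgeR, and 3 (Celf3, Nova2, Srrm4), 1 (Ptbp2) and 4 of them fell in the first interval, the second interval and the span. At an unadjusted p under 0.05, 1 was higher in the second interval and 0 in the others, and DESeq2 was not read for the lists. Nova2, a neuronal splicing regulator, fell by 1.08 ± 0.17 on the log2 scale in the first interval (adjusted p = 0.00736), the interval in which Elavl3 also fell. Of 12 other genes of axon growth and adhesion, Cntn2 and Thy1 rose and Gprin1 and Nrcam fell in the first interval, Rtn1 rose in the second, and 4 rose and 2 fell over the span. Ncam2, the relative of Ncam1, rose by 2.42 ± 0.43 on the log2 scale over the span (adjusted p = 0.0024). Of 16 genes of synaptic vesicle release, 2 (Cplx2, Sv2a) rose in the first interval, 2 (Rab3a, Snap91) in the second and 5 over the span, when Vamp2 was added, and none fell. The shares of all genes that rose were 6.19%, 7.61% and 14.0%. At an unadjusted p under 0.05, 1 was lower in each interval and 0 over the span. Cplx2, the most counted of that list, went from 32.7 ± 2.02 over 59.4 ± 3.16 to 68.5 ± 15.9 CPM (n = 3 each).

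**Figure D5:**
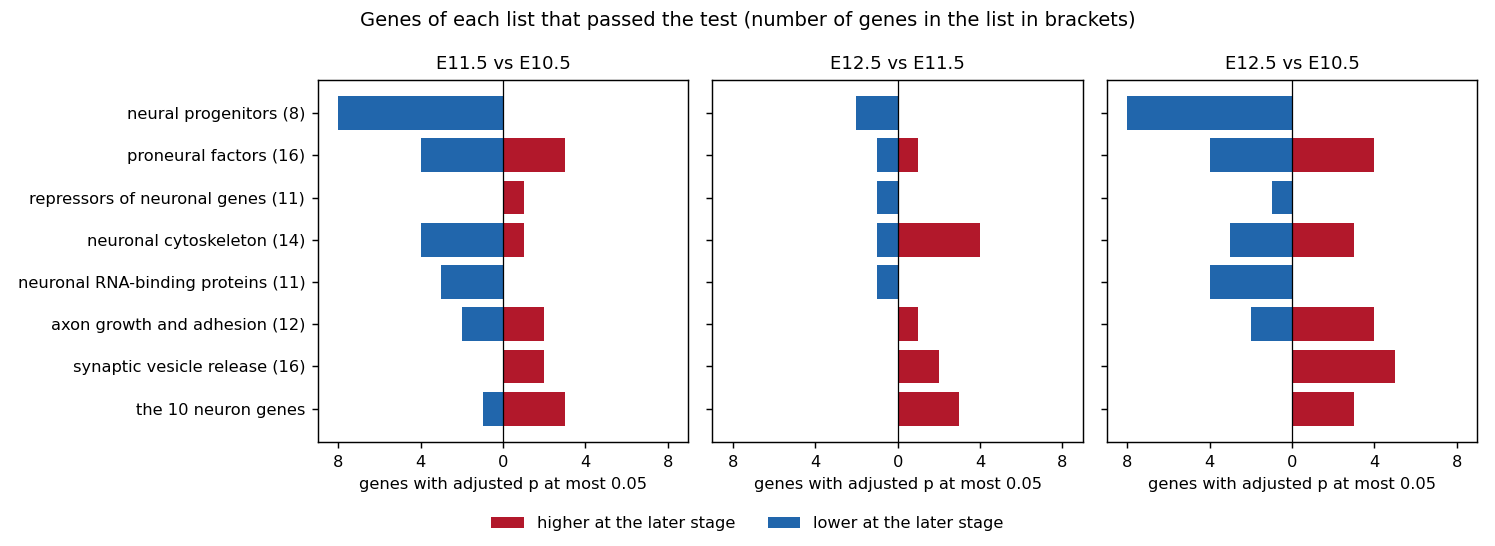
Number of genes (x axis) that passed the edgeR test, higher to the right and lower to the left of 0, for 7 lists of neuronal genes and for the 10 genes of this report (y axis, list sizes in brackets), in the 3 comparisons. Neural progenitor genes lie to the left only, with 8 of 8 in the first interval, and synaptic vesicle genes to the right only. Across all genes, 6.19%, 7.61% and 14.0% rose and 5.58%, 4.57% and 10.5% fell in the first interval, the second interval and the span.

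Of 11 repressors of neuronal genes, Rest, the zinc finger repressor that keeps neuronal genes off in other cells, rose in the first interval (0.57 ± 0.12, adjusted p = 0.0187). It measured 134, 131 and 108 CPM at E10.5, 193, 172 and 188 CPM at E11.5, and 164, 199 and 162 CPM at E12.5. All later libraries lay above those of E10.5, the interval in which Stmn2, Ncam1 and Gap43 rose too. Rcor2, a corepressor, fell in the second interval (-0.45, adjusted p = 0.0348) and over the span (-1.09, adjusted p = 0.00305), and the other members did not pass.

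Markers of the neurons and glia that the tissue could hold were also followed. Of 10 olfactory and GnRH neuron genes, 6 were tested: Gnal rose and Lhx2 fell in the first interval and over the span, and 0 passed in the second by edgeR, where 2 were higher at an unadjusted p under 0.05. Omp, the marker of mature olfactory neurons, had 1 to 9 reads in each of the 9 libraries, and Trpc2 had 0 in all. Gnrh1 had 1 to 33 reads, with 24 to 33 at E12.5. Of 10 cranial sensory neuron genes, 9 of them in the table, Isl1 and Prdm12 fell in the first interval, Isl1 and P2rx3 in the second, and Isl1, Pou4f1 and Prdm12 over the span. Their summed level was 43.9 to 45.8 CPM at E10.5 and 24.7 to 30.9 CPM at E12.5.

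Forebrain and eye neuroepithelium genes fell, 8 of 10 in the first interval and 8 of 10 over the span, where Emx2 rose. Their summed level was 232 to 330 CPM at E10.5, 111 to 118 CPM at E11.5 and 140 to 181 CPM at E12.5. Of 10 forebrain neuron genes, 1 rose (Calb2) and 4 fell (Eomes, Gad2, Lhx5, Tbr1) in the first interval, 1 rose (Reln) and 2 fell in the second, and 1 rose and 3 fell over the span. These lists moved down in the interval in which Elavl3 fell, and their part in that fall was not tested.

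Of 9 Schwann cell lineage genes, 8 were tested in the first interval, where Sox10 and Cdh19 rose and Fabp7 fell. In the second, 4 of 9 rose (Foxd3, S100b and Sox10 among them), and 6 rose and 1 fell over the span. Sox10, the lineage's transcription factor, measured 5.94, 7.20 and 4.52 CPM at E10.5, 14.5, 14.4 and 16.2 CPM at E11.5, and 38.2, 28.5 and 26.2 CPM at E12.5, without overlap between stages. The summed level of the list overlapped between stages (86.8 to 116, 102 to 112 and 108 to 154 CPM). Facial mesenchyme markers rose, 6 of 10 in the first interval and over the span, with summed levels of 1375 to 2391, 3616 to 4035 and 4566 to 5389 CPM. Whether these cells contributed reads of Ncam1 or Gap43 was not tested.

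Some of these list counts changed when E10.5 replicate 3 or E12.5 replicate 2 was left out. At E12.5, replicates 2 and 3 differed most (chi-square per degree of freedom 57.3), and replicate 1 was nearer to either (26.8 and 29.4). List counts without E12.5 replicate 3 were not read. Of all genes, 39.6% were called in the first interval without E10.5 replicate 3 and 30.8% in the second without E12.5 replicate 2. These are the shares beside which the counts stand. Without E10.5 replicate 3, the first interval held 3 risers and 2 fallers among the repressors, 4 and 2 among genes of axon growth and adhesion, and 3 and 1 among those of synaptic vesicle release. Risers and fallers were then 2 and 5 among forebrain neuron genes, 0 and 3 among cranial sensory neuron genes, 3 and 1 in the Schwann cell lineage and 9 and 1 among facial mesenchyme markers. Without E12.5 replicate 2, the second interval held 4 fallers among the neural progenitor genes (Msi1, Nes, Notch1 and Pax6), 2 among the repressors, 2 among the neuronal cytoskeleton genes and 2 among genes of axon growth and adhesion, and Gnrh1 and Lhx2 rose among the olfactory and GnRH neuron genes.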

How the data were processed

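RNA of 9 libraries, 3 per stage, was sequenced by the authors, mapped to GRCm38/mm10 with HISAT2 (version 2.0.5, per the submitters' processing notes) and counted per gene with featureCounts. The deposited values used are whole-number read counts, which the authors did not normalize. The strand and multimapping settings are not given in the sources used here. The authors' FPKM, fold change and p-value columns were not used. Samples were grouped by the stage in their labels.

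Genes were filtered with filterByExpr, scaled by TMM and tested per pair of stages, or on all 9 libraries for the difference between intervals, with edgeR 4.0.16 (quasi-likelihood test, Benjamini-Hochberg over all genes) in R 4.3.3. Standard errors were derived from the fold change and its F statistic. CPM and RPKM were computed from the counts and the table's gene length, and profile distances from log2 CPM with a prior count of 2. GC content and exon overlaps came from GENCODE vM21, in which 53499 identifiers had the same coordinates. The code was tested on simulated data.

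All 10 genes are named in every comparison. Of each list, at most 4 genes per comparison are named with values, those of smallest p among the genes that passed, with the most counted genes and the markers at 0. Genes whose levels are given beside these (Nhlh2, Gnrh1) were chosen after their values were seen, and other passing genes of short lists are listed by name. A few list genes are not reported here by name. The 10 genes, the lists and the tests were chosen with earlier results of these data known. Alternatives were DESeq2 1.42.0, other normalizations, filters, fits, thresholds, a replicate block, GC content, hemoglobin genes and each library left out. A gene length correction and the list counts without E10.5 replicate 3 or E12.5 replicate 2 were added after seeing the data. The lists cover proneural factors, repressors, neuronal cytoskeleton, neuronal RNA-binding proteins, axon growth and adhesion, synaptic vesicle release, neural progenitors, olfactory and GnRH neurons, cranial sensory neurons, forebrain neurons, forebrain and eye neuroepithelium, Schwann cell lineage, skeletal muscle, melanocytes, facial mesenchyme, facial epithelium, red blood cells and endothelium. With 3 libraries a stage, small differences were not detectable at this depth and replication.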

Additional observations from a re-analysis of the deposited data

Results flagged for a closer look

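None of the 10 neuron genes differed between the intervals in edgeR's quasi-likelihood test. Among the genes of the other lists, 10 did so at an adjusted p of at most 0.05, as the log2 fold change of the second interval minus that of the first. The difference was positive for Stmn3 (2.24), Nrcam (2.13), Sox1 (6.48), Sox2 (1.45), Sox3 (2.32), Lhx2 (1.57) and Fabp7 (2.86), all of which fell in the first interval. It was negative for Thy1 (-4.99), Calb2 (-4.49) and Krt5 (-1.89), all of which rose in the first interval. Stmn3, a relative of Stmn2, fell and then rose, from 7.61, 8.36 and 13.3 CPM at E10.5 over 3.66, 4.76 and 4.32 CPM at E11.5 to 8.62, 6.79 and 10.97 CPM at E12.5. Thy1 had 4 to 8 reads per library at E10.5 and 148 to 179 at E11.5. Sox1 had 649 to 932 reads per library at E10.5 and 1 to 34 at the later stages. Genes with 3 or fewer reads in all libraries of a stage were left out. Groups of 3 libraries are too small for an outlier test.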

How the results depend on the processing

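The rises of Stmn2, Ncam1 and Gap43 over the span passed in all 6 fits without a library and all 11 other settings, and 3 rose against a log2 fold change of 1. In the first interval the number of the 10 genes that rose ranged from 2 to 5 when a library was left out, the number that fell from 0 to 2, DEGs that rose from 1 to 2 and DEGs that fell from 0 to 1 (Nefm without E11.5 replicate 2, -1.03). In the second interval the risers ranged from 2 to 5, the fallers from 0 to 2 and the DEGs that rose from 1 to 2. Against a log2 fold change of 1 (glmTreat), 0 rose and 0 fell in either interval, with 0 DEGs. Elavl3 in the first interval gave 0 fallers in the fit on all 9 libraries and with the replicate block. Over the span 1 gene fell in the fit on all 9 libraries (Map2) and 1 with GC content offsets (Nefm, -0.59). Over the span Tubb3 also passed as higher with upper quartile normalization and in the fit on all 9 libraries, and Elavl4 with GC content offsets, with the block and GC offsets (0.56, adjusted p = 0.0267) and without E10.5 replicate 3.

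The replicate numbers were not shown to pair the pools (correlations of same-numbered libraries from -0.151 to 0.221). Those of E10.5 with E12.5 were positive for replicates 1 to 3 (0.178, 0.070 and 0.221). With 3 libraries a stage, the correlations cannot decide whether pools were paired. The block changed the number of genes that passed from 1849 to 1268 in the first interval, and from 1926 to 2191 and 3906 to 4468 in the second and the span. Not every library correlated best with its own number.

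When a library was left out, signs turned for genes that did not pass. In the first interval the log2 fold change of Tubb3 ranged from -0.0339 to 0.09182, and in the second those of Elavl3 from -0.1048 to 0.3155 and of Elavl4 from -0.08175 to 0.2548 (also -0.02944, without E12.5 replicate 3). Over the span those of Dcx ranged from -0.2889 to 0.3617 (also -0.047 and -0.06271, without E10.5 replicate 1 or 2) and of Nefl from -0.3962 to 0.2435 (also 0.08473, without E12.5 replicate 2). The difference between intervals of Map2 ranged from -0.3192 to 0.1459, with 0.02161, 0.1168 and 0.08596 in between, and it was 0.003086 with GC content offsets and 0.2492 with length offsets. The cause was not tested.

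Over all genes, those that passed numbered 3531 and 2907 with GC offsets, without and with the block, and 213 with glmTreat in the first interval. They numbered 3242 without a filter, 1179 in the fit on all 9 libraries and 144 with glmTreat in the second, and 5899 with the block and GC offsets and 933 with glmTreat over the span. For the difference between intervals, 194 genes passed, and 700 without a filter and 111 with at least 10 counts in every library. Leaving out a library gave 477 to 6447, 716 to 4976, 2202 to 4962 and 27 to 437 in the 4 tests.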

Other observations

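The non-member genes whose centred log2 CPM profile lay closest to the mean profile of the 10 genes over the 9 libraries were 1600012H06Rik (root mean square distance 0.0671 log2 units), Olfm1 (0.0699), Pigk, Ap3m2, Slc25a17, Tob1, Klf5, Nptn, Dcun1d2 and Ryk (0.0988). The genes themselves lay between 0.132 (Tubb3) and 0.857 (Stmn2) from that mean.

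Lists of other cell types were read in the same way, beside the same shares of all genes. Facial epithelium genes Krt14 and Krt5 rose in both intervals while Krt18 and Krt8 fell in the first, and Grhl3 rose over the span. Facial mesenchyme genes Col1a1 and Col3a1 rose in the second interval. Of 8 red blood cell genes, Hbb-bs rose in each comparison, and 6 fell in the second interval and 4 over the span. Of 10 skeletal muscle genes, 4 were tested, and Des fell in each comparison. The list's sum was 11.8 to 24.6 CPM at E10.5, most of it Des (mean 15.3 CPM), and 5.88 to 6.31 CPM at E12.5. Myog (0 to 2 reads per library at the earlier stages, 4 to 18 at E12.5) and Myod1 (0 to 3, then 6 to 7) went the other way. In edgeR's test Myog rose in the second interval without E12.5 replicate 2 (3.79, adjusted p = 0.00343) and over the span without E10.5 replicate 3 (3.56, adjusted p = 0.033). Of the 6 melanocyte genes, Dct rose in the second interval and Mitf fell over the span. None of the 5 endothelial genes passed in edgeR's test in any comparison, with 1 lower at an unadjusted p under 0.05 in the second interval, and without E10.5 replicate 3 Pecam1 rose and Tek fell in the first interval. Without that library 4 epithelial genes rose and 2 fell (Krt18, Krt8) in the first interval, and 5 red blood cell genes rose and 0 fell. That fit called 39.6% of all genes.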
